A study of Homo sapiens with 24 samples.

Results

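The genes described here are 34 that make, sense or move cholesterol and fatty acids, taken from a fixed list of symbols. That list was chosen with earlier results of these data known. Counts of its members set beside those of all genes therefore describe the list and are no independent test of it. All 34 were found among the 60655 genes of a table of raw messenger RNA counts. By role they are 18 enzymes of sterol synthesis and 7 enzymes of fatty acid and lipid synthesis. The rest are 4 genes of the liver X receptor (LXR) pathway and 5 genes called regulators below. Those 5 are SREBF1 and SREBF2, which encode sterol-regulated transcription factors, SCAP and INSIG1, which control these, and STARD4, a cholesterol carrier. RNA was measured in 2 human leukaemia cell lines, NB4, labelled acute promyelocytic leukaemia, and HL-60, an acute myeloid leukaemia line of another kind. Both are labelled wild type. Each line was left untreated, or given 1 µM all-trans retinoic acid (ATRA, the vitamin A derivative that matures promyelocytic cells), 0.8 µM arsenic trioxide (ATO), or both together (the combination) for 48 h. For the combination the labels state no dose of either drug on its own, and for untreated cells no culture time. There were 3 libraries in each of the 8 groups, numbered by batch from 1 to 3. The labels do not say that these came from separate cultures, so p-values measure the spread between these libraries, which may be technical. Each line is a single cell line, so a difference between the lines is between NB4 and HL-60 and not between kinds of leukaemia.

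Cells make cholesterol from acetyl-CoA through mevalonate, isoprenoid units and squalene. The transcription factors SREBP1 and SREBP2, encoded by SREBF1 and SREBF2, are held in the endoplasmic reticulum by SCAP and INSIG proteins while sterol is plentiful. When sterol falls, SCAP carries them to the Golgi, where they are cut free and switch on sterol and fatty acid enzymes, and INSIG1 itself. LXR proteins such as NR1H3 sense oxidised sterols and switch on genes of sterol export, among them ABCA1, and also SREBF1.

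Promoter sequence is shown for 8 members chosen from those that moved together or that separated the lines in the results that follow. Other such members, IDI1 and DHCR7 among them, are not shown. The windows were the 300 bases from 250 before to 50 after each gene's start, from RefSeq on GRCh38.p14, and 28 of the 34 members had at least 1 window, 40 windows in all. The shown stretches of 80 bases lie at chr22:41832924-41833003 (plus strand), chr7:155297633-155297712 (plus strand), chr5:111512661-111512740 (minus strand), chr5:43313563-43313642 (minus strand), chr16:88663172-88663251 (minus strand), chr4:165327455-165327534 (plus strand), chr10:100346983-100347062 (plus strand) and chr9:104928326-104928405 (minus strand). Each is upstream of the gene's start and is written 5′ to 3′ on the gene's strand. Each was picked for the letters marked in capitals below, so the presence of capitals follows from that choice. Capitals mark CCAAT or its reverse complement ATTGG (the letters that the factor NF-Y reads), and matches to TCACNCCAC or CACNCCAC, a sterol regulatory element core in a longer and a shorter form, in either strand.
SREBF2: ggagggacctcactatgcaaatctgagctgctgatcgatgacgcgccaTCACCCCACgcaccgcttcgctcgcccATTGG
INSIG1: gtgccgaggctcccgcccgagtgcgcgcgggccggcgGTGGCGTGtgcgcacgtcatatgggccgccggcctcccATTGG
STARD4: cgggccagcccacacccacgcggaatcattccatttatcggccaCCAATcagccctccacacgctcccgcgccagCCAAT
HMGCS1: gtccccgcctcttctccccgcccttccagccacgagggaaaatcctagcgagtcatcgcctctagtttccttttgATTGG
MVD: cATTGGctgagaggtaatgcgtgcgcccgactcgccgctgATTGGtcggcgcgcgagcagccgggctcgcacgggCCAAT
MSMO1: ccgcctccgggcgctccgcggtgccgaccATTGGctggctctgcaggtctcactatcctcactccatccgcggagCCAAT
SCD: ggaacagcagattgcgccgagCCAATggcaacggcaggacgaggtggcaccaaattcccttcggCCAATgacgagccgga
ABCA1: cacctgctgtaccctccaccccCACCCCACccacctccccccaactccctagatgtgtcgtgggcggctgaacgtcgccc

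A match to TCACNCCAC stood in 1 of 40 member windows (2.5%), that of SREBF2 at 133 bases before the start (position -133), against 1.12% of all 34943 promoter windows of the same length. The shorter CACNCCAC, which overlaps it, stood in 8 of 40 (20%, against 5.86%), and among the printed stretches in SREBF2, INSIG1 and ABCA1. CCAAT stood in 26 of 40 windows (65%, against 34.6%), and in 15 of the 20 windows of sterol enzymes (75%). The GC box GGGCGG stood in 34 of 40 (85%, against 44.9%). TCACNTGA, an E-box form that SREBP can also read, stood in 2 of 40 (5%, against 3.8%), those of INSIG1 and EBP. Windows of the same gene can overlap, so the same site can count more than once. By gene, CACNCCAC stood in 7 of 28 members, CCAAT in 22 and GGGCGG in 27, and no such count was made over all genes. Matches were sought on both strands and describe letters in these windows only.

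Library totals ran from 37811652 to 57795273 counts, and replicates varied by a biological coefficient of 8.78% (NB4) and 7.00% (HL-60). Levels are given as CPM, counts scaled to the size of each of the 24 libraries, and comparisons between genes use CPM per kb of exon. The summed level of 6 genes of myeloid precursors, MPO and ELANE among them, ran from 213 to 9841 CPM over the libraries. The sum was lower in treated cells: 9161 to 9841 CPM in untreated NB4 and 2139 to 2830 CPM with the combination, 3677 to 4143 CPM in untreated HL-60 and 213 to 265 CPM with the combination. Single genes split in NB4 (calls as defined below). Of 5 tested there, 3 rose and 2 fell with ATRA (31.3% and 28.6% of all genes). With the combination 2 rose and 3 fell in NB4 (35.4% and 32.8%), and all 6 fell in HL-60 (29.7% of all genes). ELANE, the neutrophil elastase gene, was near 0 in NB4 (0.195 CPM in untreated cells, mean of 3) and was 175 CPM in untreated HL-60. This marker was thus nearly absent from the line labelled promyelocytic. The summed level of the 6 genes was nevertheless higher in untreated NB4 than in untreated HL-60. Erythroid markers were at 0 in every library (3 of 3 genes), fibroblast markers summed to at most 0.831 CPM (1 of 3 at 0 in every library) and T cell markers to at most 5.46 CPM (none of 3 at 0 in every library). B cell markers (1 of 3 at 0) ran from 3.08 to 3.69 CPM in untreated NB4 to 40.9 to 45.9 CPM with the combination in NB4, and stayed at or under 4.07 CPM in HL-60. What part the lower sum of precursor genes has in the lipid results was not tested. Fewer cells of a kind and less RNA per cell cannot be told apart in bulk samples such as these.

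In untreated cells the desaturase gene SCD had the highest level per kb of the list in both lines, 273 ± 16.7 CPM per kb in NB4 and 109 ± 2.67 in HL-60 (SD, n = 3). SCD puts the first double bond into saturated fatty acids. In NB4 the next were ACLY (88.9 ± 3.94 CPM per kb), which makes cytosolic acetyl-CoA, INSIG1 (72.4 ± 5.43), FASN, the fatty acid synthase (62.2 ± 4.56), HMGCS1, which makes HMG-CoA (60.6 ± 10.7), and FDFT1, the squalene synthase (59.9 ± 3.44). Those last 3 do not differ beyond their spread. In HL-60 the order after SCD was FDPS, which makes farnesyl diphosphate (69.9 ± 0.927 CPM per kb), ACLY (65.0 ± 3.43) and FDFT1 (60.7 ± 2.2), and the last 2 lay within about their spread of each other. Among the lowest were CYP51A1, with 0 counts in NB4, PNPLA3, a lipid droplet protein (0.14 ± 0.0149 CPM per kb in NB4), and ABCG1, a sterol exporter. ABCG1 had 0 counts in each of the 12 NB4 libraries but 1 and stayed under the floor of 3 counts per library there.

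Between the untreated lines, 9 of 34 members were higher in HL-60 and 18 lower (median log2 difference -0.28, against 0.01 over all genes). The background of this comparison was large: 63.2% of the 17930 genes tested were called (34% higher and 29.1% lower), with a call meaning a Benjamini-Hochberg adjusted p below 0.05 in edgeR's quasi-likelihood test, as throughout. Lower in HL-60 were 6 of 7 fatty acid genes and 4 of 5 regulators. The delta-6 desaturase gene FADS2 was at 568, 495 and 607 CPM in the NB4 libraries and at 51.8, 52.1 and 51.6 CPM in HL-60, a log2 difference of -3.43 ± 0.0853 (SE, adjusted p = 3.24e-25). Its neighbour FADS1, the delta-5 desaturase, differed the other way and by little (0.31 ± 0.0722, adjusted p = 0.000413). SREBF1 was at 81.0, 81.4 and 86.5 CPM in NB4 and at 27.0, 27.7 and 24.7 CPM in HL-60 (log2 difference -1.65 ± 0.0806, adjusted p = 1.09e-17), whereas SREBF2 was higher in HL-60 (0.49 ± 0.0648, adjusted p = 7.83e-08). CYP51A1, the lanosterol demethylase, had 0 counts in all 12 NB4 libraries and 403 counts over the 3 untreated HL-60 libraries, at least 46.2-fold higher against a floor of 3 counts per library. In GENCODE v29, 83.2% of the exonic bases of CYP51A1 are shared with other genes, 2 of them on the same strand, and the part of that overlap in the 0 of NB4 was not tested. When libraries were scaled by size alone, without scaling factors, the median over all genes moved from 0.01 to -0.12 and 21 members were lower.

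**Figure D1:**
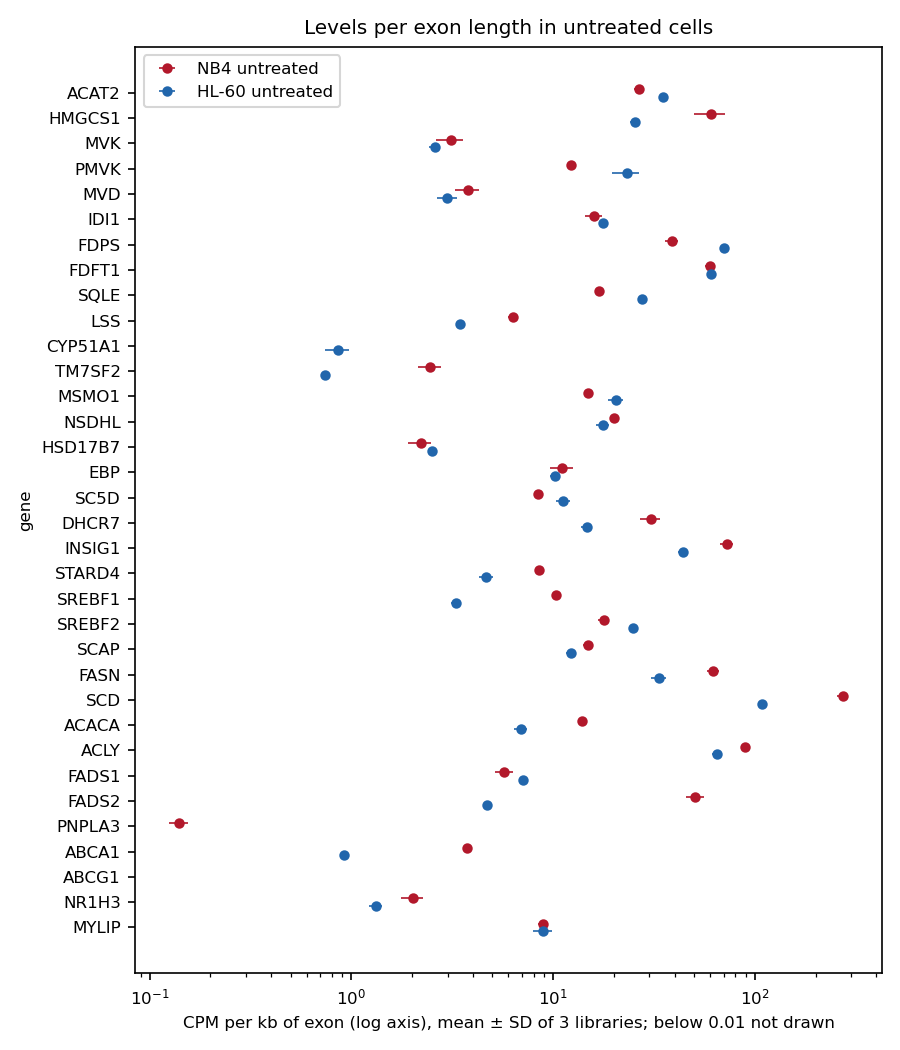
Level of each member in untreated NB4 (red) and HL-60 (blue) cells, in CPM per kb of exon on a log axis, as mean ± SD of 3 libraries; levels below 0.01 are not drawn. SCD is highest in both lines, and FADS2 shows the widest gap between the lines among genes drawn in both, 50.5 CPM per kb in NB4 against 4.7 in HL-60.

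ATRA raised most of the list in both lines. In NB4, 29 of the 32 members tested rose and 1 fell (median log2 change 1.00), where 31.3% of all 16370 genes rose, 28.6% fell and the median was 0.03. In HL-60, 28 of 34 rose and none fell (median 0.52), where 25.2% of 15895 genes rose and 23.3% fell. HL-60 had 0 falls by edgeR and by DESeq2, and at an unadjusted p below 0.05 edgeR also gave 0. Of the 32 members tested in both lines, 26 rose in both. The share of all genes that rose in both lines was not counted. In NB4, untreated and treated libraries did not overlap for 29 of the 30 members called (59.9% of all genes were called), and in HL-60 for all 28 (48.6% called). Those shares are of genes called. Overlap was counted for members only, so these counts cannot be set against all genes and single out nothing about the members. CYP51A1 and ABCG1 were not tested in NB4 for want of reads.

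Sterol enzymes rose in 16 of 17 cases tested in NB4 (31.3% of all genes) and in 13 of 18 in HL-60 (25.2% of all genes). MVD, which makes isopentenyl diphosphate, was at 17.7, 15.5 and 20.3 CPM in untreated NB4 libraries and at 68.6, 58.8 and 87.3 CPM with ATRA, a 4.07-fold rise (log2 2.02 ± 0.115, adjusted p = 9.37e-13). In HL-60 it went from 15.9, 13.0 and 13.2 CPM to 20.7, 21.2 and 21.2 CPM, a 1.51-fold rise (0.59 ± 0.106, adjusted p = 6.48e-05). Every treated library lay above every untreated one in both lines, with the wider gap in NB4. HMGCS1 was at 312, 227 and 316 CPM in untreated NB4 and at 747, 721 and 866 CPM with ATRA (log2 1.47 ± 0.105, adjusted p = 4.96e-11). In HL-60 its 3 untreated libraries held 114, 117 and 127 CPM and its ATRA libraries 172, 179 and 169 CPM (0.55 ± 0.0533, adjusted p = 1.19e-08). DHCR7, which makes cholesterol in the last step, rose by a log2 of 1.29 ± 0.0951 in NB4 and 0.53 ± 0.0584 in HL-60 (adjusted p = 8.34e-11 and 7.81e-08). MVK, the mevalonate kinase, rose by 1.25 ± 0.109 and 0.55 ± 0.0801 (adjusted p = 1.52e-09 and 4.24e-06). SQLE, the squalene epoxidase, rose by 0.92 ± 0.0663 in NB4 and 1.06 ± 0.05 in HL-60. FDFT1 and FDPS rose by 1.06 ± 0.0692 and 1.06 ± 0.0909 in NB4 and by 0.32 ± 0.0418 and 0.14 ± 0.0429 in HL-60. LSS, which closes the sterol rings, rose by 0.63 ± 0.0865 and 0.57 ± 0.0801, and TM7SF2, a sterol reductase at low level, by 0.78 ± 0.115 and 0.65 ± 0.189. NSDHL, which works with MSMO1 and HSD17B7 to strip the C4 methyl groups, rose in NB4 (0.39 ± 0.0822) and had a value of 0.10 ± 0.0812 in HL-60. CYP51A1 was not called in HL-60 under any drug or the combination. EBP, the sterol isomerase, rose in NB4 (1.00 ± 0.106) and had a value of 0.05 ± 0.0706 in HL-60 (adjusted p = 0.637). PMVK, the phosphomevalonate kinase, was called in neither line (-0.09 ± 0.0889 and 0.16 ± 0.119). HSD17B7 rose by 0.98 ± 0.116 in NB4, but this gene has a near-identical pseudogene, HSD17B7P2, with 85 to 123 counts in the untreated NB4 libraries and 141 to 199 with ATRA, so its reads are uncertain. ACAT2, which joins 2 acetyl-CoA at the head of the pathway, rose by 0.97 ± 0.0673 and 0.22 ± 0.0449. It shares 52.3% of its exonic bases with genes of the opposite strand, and whether the counting used strand is not given in the sources used here.

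Regulators followed, with 4 of 5 rising in each line (31.3% of all genes in NB4 and 25.2% in HL-60). INSIG1 was at 269, 243 and 282 CPM in untreated NB4 and at 747, 614 and 793 CPM with ATRA (2.76-fold, log2 1.46 ± 0.0893, adjusted p = 3.18e-12). In HL-60 it went from 151, 161 and 168 CPM to 219, 220 and 212 CPM (1.36-fold, 0.45 ± 0.0533, adjusted p = 2.73e-07). STARD4, a carrier of cholesterol through the cytosol, rose from 49.3, 46.8 and 48.5 CPM to 129, 131 and 135 CPM in NB4 (1.47 ± 0.0907, adjusted p = 3.95e-12) and from 26.6, 24.4 and 28.5 CPM to 50.6, 49.3 and 53.3 CPM in HL-60 (0.96 ± 0.0781, adjusted p = 5.93e-10). SREBF1 moved by nearly the same amount in the 2 lines, log2 1.41 ± 0.0746 in NB4 and 1.54 ± 0.0795 in HL-60, and their difference was 0.14 ± 0.11 (adjusted p = 0.369). SREBF2 rose by 1.00 ± 0.0742 and 0.50 ± 0.0494. SCAP, the escort protein, was the one member that fell with ATRA in NB4 (-0.26 ± 0.0862, adjusted p = 0.0134), from 99.2, 90.1 and 98.7 CPM to 79.6, 73.7 and 84.3 CPM. Its value in HL-60 was -0.04 ± 0.0721 (adjusted p = 0.674).

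All 7 fatty acid genes rose with ATRA in each line (31.3% of all genes in NB4 and 25.2% in HL-60). SCD was at 1487, 1363 and 1537 CPM in untreated NB4 and at 3204, 2810 and 3471 CPM with ATRA (2.19-fold, log2 1.13 ± 0.0672, adjusted p = 1.96e-12). In HL-60 it went from 584, 567 and 596 CPM to 1099, 1154 and 1029 CPM (1.89-fold, 0.92 ± 0.0473, adjusted p = 1.68e-13). FASN rose by a log2 of 0.86 ± 0.102 in NB4 and by 0.21 ± 0.0601 in HL-60 (adjusted p = 1.99e-07 and 0.00651). ACACA, the acetyl-CoA carboxylase, rose by 0.77 ± 0.0607 and 0.47 ± 0.0625. FADS1 rose by 1.04 ± 0.0838 and 1.09 ± 0.0531, and FADS2 by 1.24 ± 0.0874 and 0.97 ± 0.0609. The smallest rises were those of ACLY, 0.18 ± 0.0685 in NB4 and 0.14 ± 0.0433 in HL-60 (adjusted p = 0.0303 and 0.0123). The NB4 call of ACLY was lost when 1 of 3 libraries was left out, untreated 2 or ATRA 1 or 3 (adjusted p of 0.109 to 0.224). It was also lost by library size alone (adjusted p = 0.137), with a filter of at least 1 read (0.0562) and with only the groups compared in the fit (0.0691). The HL-60 call was lost without untreated library 3 (adjusted p = 0.0845) and by library size alone (0.0869). PNPLA3 gave the widest contrast between the lines. It was at 0.505, 0.444 and 0.41 CPM in untreated NB4 and at 1.62, 1.29 and 1.9 CPM with ATRA (log2 1.84 ± 0.345, adjusted p = 8.45e-05). In untreated HL-60 it had 2 counts over 3 libraries (0.0506, 0 and 0 CPM), and with ATRA 1745 counts (12.0, 11.8 and 13.6 CPM), a ratio of 814 with a 95% exact counting interval of 225 to 6730. That interval covers counting error only and takes each count as independent. Whether single reads or pairs were counted is not given, so this interval and the later ones of its kind may be too narrow.

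Of the LXR pathway genes, 2 of 3 tested rose with ATRA in NB4 and 4 of 4 in HL-60, and 0 fell in either line. Of all genes, 31.3% rose in NB4 and 25.2% in HL-60. ABCA1, which exports cholesterol to lipoproteins, was at 43.0, 42.5 and 41.8 CPM in untreated NB4 and at 177, 204 and 196 CPM with ATRA (4.6-fold, log2 2.20 ± 0.0786, adjusted p = 2.23e-16). In HL-60 it rose from 9.95, 10.8 and 10.5 CPM to 101, 109 and 88.5 CPM (9.59-fold, 3.26 ± 0.111, adjusted p = 8.44e-17). The receptor gene NR1H3 was at 7.76, 9.93 and 9.6 CPM in untreated NB4 and at 8.44, 6.95 and 7.86 CPM with ATRA, which overlap (-0.21 ± 0.121, adjusted p = 0.143). In HL-60 it rose from 5.52, 6.37 and 6.03 CPM to 17.0, 16.6 and 18.4 CPM (1.54 ± 0.102, adjusted p = 1.55e-11). MYLIP, a ubiquitin ligase that LXR switches on, rose in both lines, by 0.80 ± 0.072 in NB4 and 0.28 ± 0.0827 in HL-60. The HL-60 call of MYLIP had an adjusted p of 0.00819, and of 0.0504 without untreated library 2. ABCG1 went from 2 to 180 counts over the 3 libraries in HL-60, a ratio of 84.0 (95% exact counting interval 22.9 to 699).

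**Figure D2:**
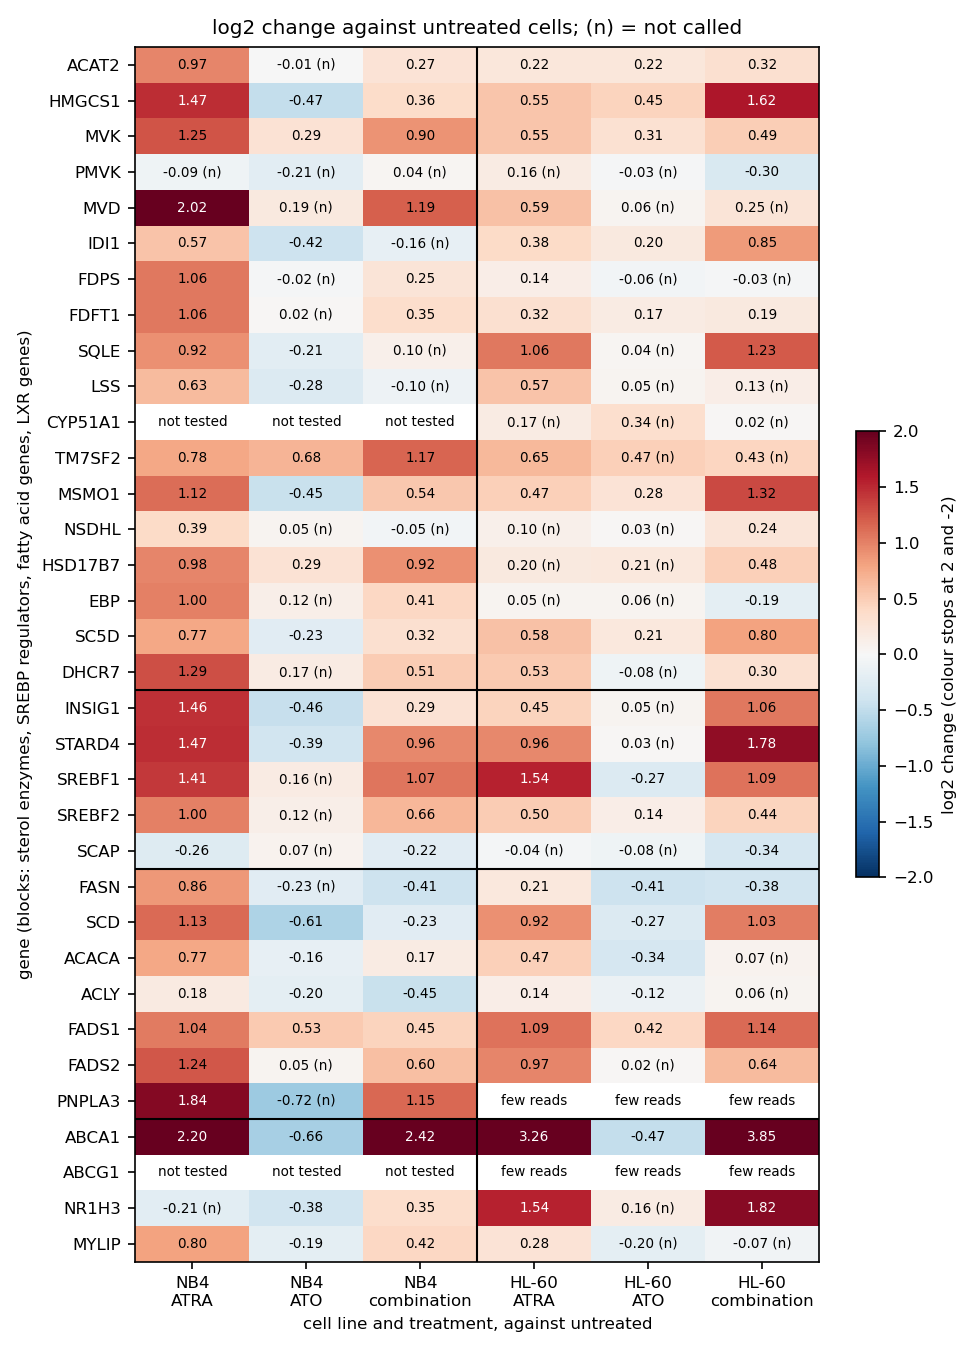
log2 change of each member against untreated cells in the 6 line and treatment groups, with the value printed in each cell; (n) marks an adjusted p of 0.05 or more, and colour stops at 2 and -2. The ATRA columns are almost all red in both lines, and the ATO column is mixed, with HMGCS1, IDI1, MSMO1 and SC5D blue in NB4 and red in HL-60; cells marked few reads rest on an untreated group with 2 counts.

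Of the 32 members tested in both lines, 2 rose with ATO alone in both, 4 fell in both, and 4 fell in NB4 and rose in HL-60. Such counts over both lines were not made for all genes, so whether they are unusual cannot be told. In NB4 4 members rose and 14 fell (median log2 change -0.17), with 40.8% of all genes called, 21.2% rising, 19.6% falling and a median of 0.02. In HL-60 10 rose and 6 fell (median 0.05), with 28.7% of all genes called, 16.5% rising and 12.1% falling. The share of members that rose in NB4 therefore lay near or under the background, and the share that fell lay above it. This NB4 split depended on scaling. By library size alone, 8 members rose and 7 fell, the called genes of the whole table went from 51.9% to 69% higher, and the medians were -0.06 over members and 0.13 over all genes. Calls of ATRA and of ATO within a line use the same untreated libraries.

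In NB4, 6 of the 17 sterol enzymes tested fell under ATO, 3 rose and 8 were not called (median -0.01). Of all genes, 19.6% fell and 21.2% rose there, so the share of these enzymes that rose was not above that of all genes. HMGCS1 was at 194, 229 and 200 CPM with ATO against 312, 227 and 316 CPM untreated (-0.47 ± 0.103, adjusted p = 0.000863), with 1 library of each group overlapping. MSMO1, which removes methyl groups at C4 of the sterol ring, went from 44.5, 40.7 and 44.0 CPM to 32.5, 33.5 and 29.6 CPM (-0.45 ± 0.0927, adjusted p = 0.000538). IDI1, the isopentenyl diphosphate isomerase, went from 69.9, 61.9 and 75.3 CPM to 52.9, 58.1 and 45.3 CPM (-0.42 ± 0.0907, adjusted p = 0.000773). SC5D, the lathosterol desaturase, changed by -0.23 ± 0.0764 (adjusted p = 0.0177), and this call was lost without untreated library 1 or ATO library 2 or 3 (adjusted p of 0.0658 to 0.0827) and with scaling by library size alone (-0.13, adjusted p = 0.217). The sterol enzymes that rose were TM7SF2, a sterol reductase, MVK, the mevalonate kinase, and HSD17B7. TM7SF2 went from 7.12, 8.62 and 9.27 CPM to 14.7, 13.1 and 12.6 CPM (0.68 ± 0.114, adjusted p = 6.04e-05), and MVK rose by 0.29 ± 0.109 (adjusted p = 0.0398), a call lost without untreated library 1 or 2 or ATO library 2 or 3 (adjusted p of 0.108 to 0.18). HMGCS1, MSMO1, IDI1 and SC5D all rose in HL-60. There HMGCS1 was at 114, 117 and 127 CPM untreated and 162, 157 and 168 CPM with ATO (0.45 ± 0.0533, adjusted p = 1.01e-06), and MSMO1 went from 53.5, 63.5 and 61.1 CPM to 71.2, 70.8 and 71.7 CPM (0.28 ± 0.0616, adjusted p = 0.00163). IDI1 rose by 0.20 ± 0.0518 (adjusted p = 0.00444) and SC5D by 0.21 ± 0.0576 (adjusted p = 0.00802). The difference between the lines was itself called for all 4: log2 0.90 ± 0.128 for HMGCS1 (adjusted p = 6.14e-06), 0.69 ± 0.116 for MSMO1, 0.60 ± 0.108 for IDI1 and 0.42 ± 0.0963 for SC5D (adjusted p = 7.26e-05, 0.000204 and 0.00295). Without untreated HL-60 library 1, the rise of SC5D in HL-60 had an adjusted p of 0.0664.

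Among the regulators, INSIG1 and STARD4 fell with ATO in NB4 (-0.46 ± 0.0881 and -0.39 ± 0.0909) and had values of 0.05 ± 0.0534 and 0.03 ± 0.0796 in HL-60. Of the fatty acid genes, SCD fell in both lines, from 1487, 1363 and 1537 CPM to 957, 981 and 964 CPM in NB4 (-0.61 ± 0.0667, adjusted p = 2.32e-07) and from 584, 567 and 596 CPM to 468, 477 and 488 CPM in HL-60 (-0.27 ± 0.0471, adjusted p = 0.000118). FADS1 rose in both, by 0.53 ± 0.0834 in NB4 and 0.42 ± 0.0531 in HL-60. FASN fell in HL-60 (-0.41 ± 0.0604, adjusted p = 1.75e-05) and had a value of -0.23 ± 0.102 in NB4 (adjusted p = 0.073). ABCA1 fell in both lines, to 26.8, 27.6 and 26.8 CPM in NB4 (-0.66 ± 0.0786, adjusted p = 7.22e-07) and to 7.81, 7.88 and 6.63 CPM in HL-60 (-0.47 ± 0.124, adjusted p = 0.00579). NR1H3 fell in NB4 (-0.38 ± 0.121, adjusted p = 0.0141), and its adjusted p was 0.0539 to 0.0724 without untreated library 2 or 3 or ATO library 2 or 3. The NB4 calls of HSD17B7 (0.29, adjusted p = 0.0497), ACACA (-0.16, 0.0414) and MYLIP (-0.19, 0.0463) were lost with the batch as a replicate block (adjusted p = 0.0609, 0.0612 and 0.0711).

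With the combination most members again stood above untreated cells. In NB4 23 of 32 rose and 4 fell (median log2 change 0.36), with 68.2% of all genes called, 35.4% rising and 32.8% falling. In HL-60 22 of 34 rose and 4 fell (median 0.46), with 60.4% of all genes called, 30.7% rising and 29.7% falling. Of the 32 tested in both lines, 17 rose in both and 2 fell in both, and the matching shares of all genes were not counted. EBP rose in NB4 (0.41 ± 0.106, adjusted p = 0.00157) and fell in HL-60 (-0.19 ± 0.0718, adjusted p = 0.0278), and that fall had an adjusted p of 0.132 without untreated library 2 and 0.0928 without combination library 2. SCD did the reverse, as given with the fatty acid genes.

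Set against ATRA alone, the lines parted. In NB4 25 of 32 members were lower with the combination than with ATRA and 3 were higher (median -0.59), where 38% of all genes were called, 21.2% lower and 16.8% higher, and their median was -0.01. Scaled by library size alone, 24 were lower and 4 higher, while the called genes of the whole table went from 44.3% to 68.4% higher. In HL-60 13 were lower and 10 higher (median -0.10), where 43.9% of all genes were called, 21.9% lower and 22% higher. HMGCS1 in NB4 was at 336, 359 and 408 CPM with the combination against 747, 721 and 866 CPM with ATRA (-1.11 ± 0.104, adjusted p = 3.27e-08). In HL-60 it was at 383, 335 and 369 CPM with the combination against 172, 179 and 169 CPM with ATRA (1.07 ± 0.053, adjusted p = 2.29e-13). All 3 NB4 combination libraries lay under all 3 ATRA libraries, and in HL-60 all 3 lay above. MSMO1 was at 55.3, 58.7 and 74.9 CPM in NB4, under its ATRA level of 89.8, 89.9 and 97 CPM (-0.58 ± 0.0904, adjusted p = 2.61e-05). In HL-60 it was at 157, 139 and 143 CPM, over its ATRA level of 80.1, 81.6 and 83.3 CPM (0.85 ± 0.0607, adjusted p = 1.29e-10). IDI1 and SC5D had the same pair of directions, -0.73 ± 0.0904 and -0.45 ± 0.0753 in NB4 and 0.47 ± 0.0512 and 0.22 ± 0.0567 in HL-60. SQLE was lower by -0.82 ± 0.0661 in NB4 and higher by 0.18 ± 0.0491 in HL-60 (adjusted p = 3.65e-09 and 0.00567). MVD and DHCR7 were lower with the combination than with ATRA in both lines, MVD by -0.83 ± 0.11 in NB4 and -0.35 ± 0.106 in HL-60, and DHCR7 by -0.78 ± 0.0939 and -0.23 ± 0.0582.

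INSIG1 was at 281, 335 and 358 CPM with the combination in NB4, less than its ATRA level (-1.17 ± 0.0885, adjusted p = 1.36e-09), and at 349, 307 and 334 CPM in HL-60, more than its ATRA level (0.61 ± 0.053, adjusted p = 3.04e-09). STARD4 was at 84.6, 84.9 and 114 CPM in NB4 (-0.51 ± 0.0882 against ATRA) and at 98.3, 77.8 and 92.5 CPM in HL-60 (0.82 ± 0.0752 against ATRA). Against untreated cells STARD4 rose 1.94-fold in NB4 and 3.42-fold in HL-60. SREBF1 lay below its ATRA level in both lines (-0.35 ± 0.0728 in NB4 and -0.45 ± 0.0766 in HL-60). SREBF2 was lower than with ATRA in NB4 (-0.34 ± 0.0733) and had a value of -0.06 ± 0.0492 in HL-60 (adjusted p = 0.331). SCAP fell against untreated cells in HL-60 (-0.34 ± 0.073, adjusted p = 0.000336) and in NB4 (-0.22 ± 0.0859, adjusted p = 0.0261). The NB4 call of SCAP had an adjusted p of 0.227 without combination library 3, 0.0868 without untreated library 1 and 0.0809 without untreated library 3.

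Of the fatty acid genes, SCD was at 1191, 1292 and 1287 CPM with the combination in NB4, below each untreated library (-0.23 ± 0.0665, adjusted p = 0.00452), and at 1239, 1088 and 1190 CPM in HL-60, above each untreated library (1.03 ± 0.0474, adjusted p = 1.28e-14). Against ATRA alone SCD was 2.57-fold lower in NB4 (log2 -1.36 ± 0.0676) and had a value of 0.11 ± 0.0468 in HL-60 (adjusted p = 0.068). FASN fell with the combination in both lines, to 474, 460 and 391 CPM in NB4 (-0.41 ± 0.102, adjusted p = 0.00125) and to 220, 260 and 231 CPM in HL-60 (-0.38 ± 0.0605, adjusted p = 1.17e-05). ACLY fell in NB4 (-0.45 ± 0.0687) and had a value of 0.06 ± 0.0434 in HL-60. FADS1 in HL-60 kept a level of 166, 159 and 149 CPM, not called against ATRA (0.05 ± 0.052), while in NB4 it was lower than with ATRA (-0.59 ± 0.0827). PNPLA3 was at 10.5, 10.1 and 9.97 CPM in HL-60 (1173 counts against 2, a ratio of 667 with an interval of 184 to 5512) and at 0.771, 0.978 and 1.3 CPM in NB4 (1.15 ± 0.348 against untreated, adjusted p = 0.00568).

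ABCA1 went the other way from most sterol enzymes in NB4, of which TM7SF2 alone was called above its ATRA level, at 17.3, 20.9 and 18.5 CPM against 15.2, 13.2 and 13.8 CPM (0.40 ± 0.11, adjusted p = 0.00651). ABCA1 was at 210, 215 and 261 CPM with the combination, above its ATRA level (0.22 ± 0.074, adjusted p = 0.0223), although ATO alone lowered it. In HL-60 it was at 170, 119 and 157 CPM, also above its ATRA level (0.59 ± 0.0943, adjusted p = 2.31e-05), a 14.4-fold rise over untreated cells. NR1H3 was likewise above its ATRA level in both lines, at 10.9, 12.2 and 12.0 CPM in NB4 (0.57 ± 0.12, adjusted p = 0.000703) and 20.2, 22.8 and 19.4 CPM in HL-60 (0.28 ± 0.0943, adjusted p = 0.0204). MYLIP was below its ATRA level in both (-0.39 ± 0.071 and -0.35 ± 0.0835). ABCG1 had 75 counts over the 3 HL-60 libraries against 2 untreated, a ratio of 42.6 (interval 11.4 to 358).

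**Figure D3:**
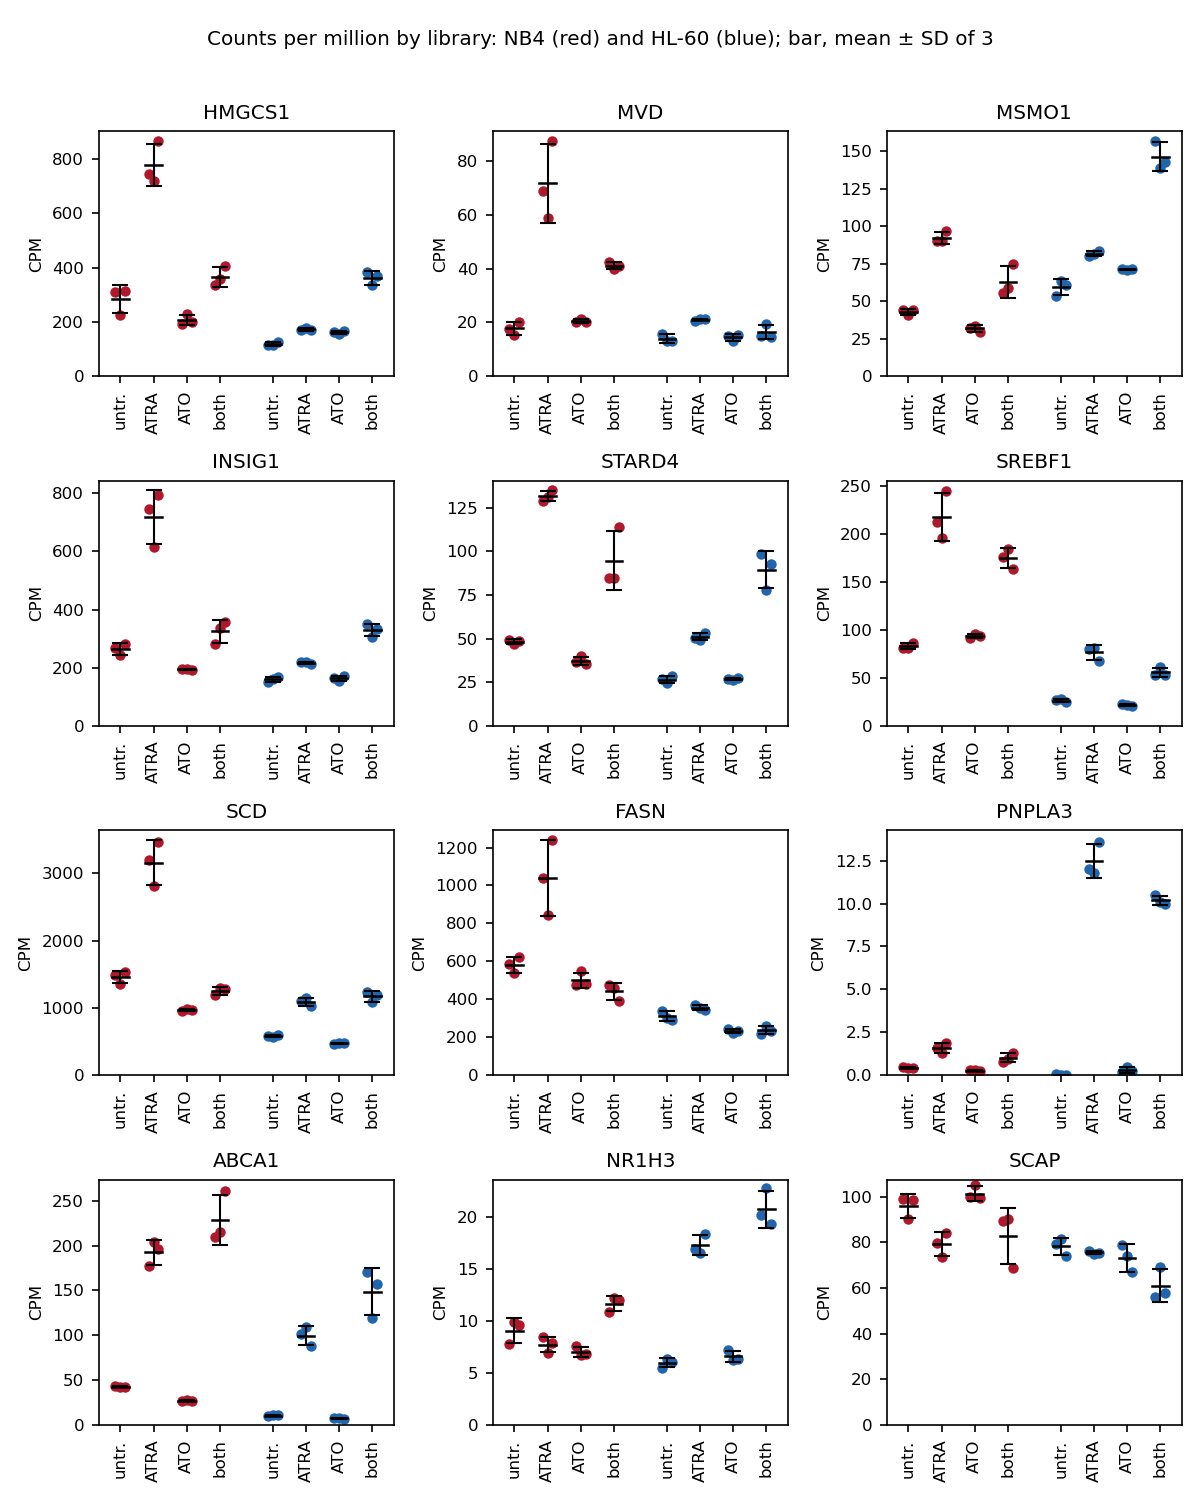
CPM of 12 members in each library of NB4 (red) and HL-60 (blue) for untreated cells (untr.), ATRA, ATO and the combination (both); bars are mean ± SD of 3 libraries and each panel starts at 0. For HMGCS1, MSMO1, INSIG1 and STARD4 the ATRA group is the highest in NB4 and the combination is the highest in HL-60, while ABCA1 is highest with the combination in both lines.

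Against ATO alone, 26 members were higher with the combination and 2 lower in NB4 (28.6% and 28.3% of all genes, 56.9% called), and 21 were higher and 2 lower in HL-60 (27.5% and 27% of all genes, 54.5% called). PMVK in HL-60 was not called there (-0.27, adjusted p = 0.0672) and was called lower with the batch as a replicate block (-0.28, adjusted p = 0.0389). Under scaling by size alone, 18 members were higher and 3 lower in HL-60, and the called genes of the whole table went from 50.5% to 39.6% higher.

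The interaction asks whether the combination's log2 change differs from the sum of the 2 single-drug changes. The labels state no dose of either drug in the combination. A departure from the sum therefore cannot be told apart from a difference in dose. In NB4 it was below that sum for 20 of 32 members and above it for 2 (median -0.48), where 18.7% of all genes were called, 12.5% below and 6.14% above, and their median was -0.06. FADS1 (-1.11 ± 0.117, adjusted p = 3.95e-07), FASN (-1.03 ± 0.144), MVD (-1.02 ± 0.159) and DHCR7 (-0.95 ± 0.133) lay farthest below. ABCA1 (0.88 ± 0.108, adjusted p = 3.37e-06) and NR1H3 (0.95 ± 0.17, adjusted p = 0.00033) were the 2 above. MSMO1 and STARD4 were not called in NB4 (-0.13 ± 0.129 and -0.12 ± 0.126). In HL-60 7 of 34 were above the sum and 9 below (median -0.16), where 32.5% of all genes were called, 14.4% above and 18.1% below. Those above were STARD4 (0.79 ± 0.109, adjusted p = 8.16e-06), HMGCS1 (0.62 ± 0.0748, adjusted p = 1.22e-06), MSMO1 (0.58 ± 0.0863), INSIG1 (0.57 ± 0.0752), SCD (0.38 ± 0.0664), IDI1 (0.27 ± 0.0728) and ABCA1 (1.06 ± 0.156). One of those below is PNPLA3, whose value rests on 2 counts in untreated cells. With the batch as a replicate block PMVK (-0.45, adjusted p = 0.0278, from 0.0569) and TM7SF2 (-0.70, adjusted p = 0.0339, from 0.0502) were also called below the sum in HL-60. By size alone 16 members were below it.

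**Figure D4:**
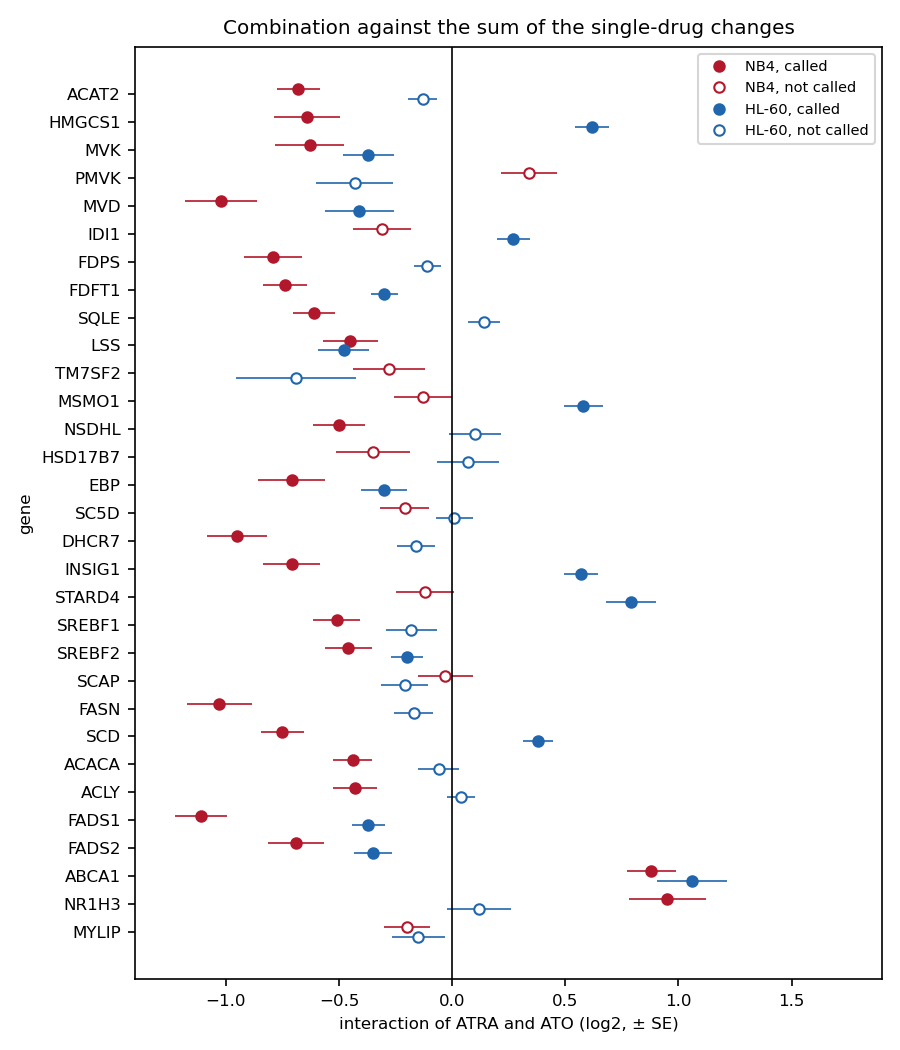
Interaction of ATRA and ATO, as log2 difference of the combination from the sum of the single-drug changes ± SE, for 31 members in NB4 (red) and HL-60 (blue); filled points have an adjusted p below 0.05, and CYP51A1, PNPLA3 and ABCG1 are left out for few reads. HMGCS1, INSIG1 and SCD lie left of 0 in NB4 and right of 0 in HL-60, and ABCA1 lies right of 0 in both.

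Differences between the lines were tested directly in a fit of all 24 libraries. For ATRA, 16 members responded less in HL-60 than in NB4 and 3 more (17.7% and 16.8% of all 17930 genes, 34.5% called). The 10 sterol enzymes among the 16 included MVD (-1.42 ± 0.166, adjusted p = 3.08e-08), EBP (-0.94 ± 0.133) and FDPS (-0.91 ± 0.106), and INSIG1 differed by -1.0 ± 0.11. The 3 that responded more in HL-60 were PNPLA3, NR1H3 (1.76 ± 0.157, adjusted p = 1.17e-10) and ABCA1 (1.07 ± 0.14, adjusted p = 2.68e-07). For ATO, 9 responded more positively in HL-60 and 1, SREBF1 (-0.46 ± 0.113, adjusted p = 0.0054), less (6% and 7.11% of all genes, 13.1% called). Scaling by size alone gave 7 and 3, and the called genes of the whole table went from 45.8% to 29.6% higher.

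For the combination the change was more positive in HL-60 than in NB4 for 13 members and less positive for 8. The shares of all genes were 22.7% and 24.9%, with 47.5% called and a median of -0.11. The count of 8 is thus near the share of all genes, and the count of 13 lies above it. The sign is not a size of response. ACLY, among the 13, fell in NB4 (-0.45) and was not called in HL-60 (0.06). Sterol enzymes lay on both sides, 5 more positive and 6 less. HMGCS1 (1.23 ± 0.128, adjusted p = 1.27e-09), SQLE (1.11 ± 0.0807, adjusted p = 5.6e-13), IDI1 (0.98 ± 0.108) and MSMO1 (0.75 ± 0.115) responded more in HL-60, as did SC5D (0.45 ± 0.0957). MVD (-0.97 ± 0.168), TM7SF2 (-0.76 ± 0.212) and EBP (-0.63 ± 0.134) had a less positive change in HL-60, which for EBP was a fall. SCD differed by 1.23 ± 0.0848 (adjusted p = 1.71e-13) and ABCA1 by 1.4 ± 0.14. Not called were SREBF1 (0.00 ± 0.113), FASN (0.01 ± 0.131) and FADS2 (0.02 ± 0.111). By library size alone 13 members had a less positive change in HL-60, and the median over all genes was -0.24.

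**Figure D5:**
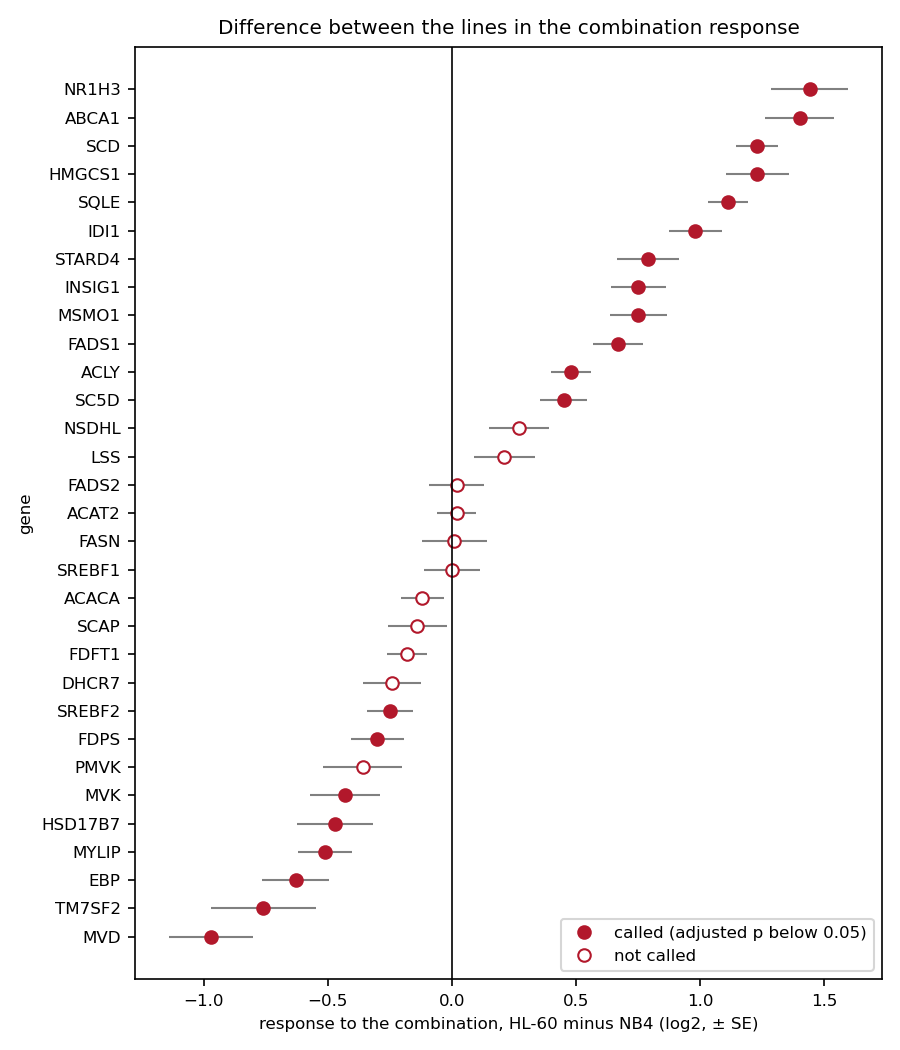
Response to the combination in HL-60 minus that in NB4, as log2 difference ± SE, for 31 members in order of size; filled points have an adjusted p below 0.05, and CYP51A1, PNPLA3 and ABCG1 are left out for few reads. NR1H3, ABCA1, SCD, HMGCS1 and SQLE are above 1, and MVD is lowest at -0.97.

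Other genes of these pathways were taken from 4 further lists, whose counts are read against all genes tested: 31.3% rose and 28.6% fell with ATRA in NB4, 25.2% and 23.3% in HL-60, and with the combination 35.4% and 32.8% in NB4 and 30.7% and 29.7% in HL-60. Of 13 further sterol and isoprenoid enzymes, 4 rose and 6 fell with ATRA in NB4, and 6 rose and 3 fell in HL-60. With the combination 2 rose and 8 fell in NB4, and 8 rose and 4 fell in HL-60. The ends of the list in NB4 were PDSS1, which builds the tail of coenzyme Q (-1.27 ± 0.0923), and RABGGTA, a subunit of a prenyl transferase (0.62 ± 0.0934), and those in HL-60 were 2 subunits of prenyl transferases, FNTB (-0.65 ± 0.143) and PGGT1B (0.76 ± 0.0784). Of 16 genes of SREBP processing and sterol handling, 6 rose and 6 fell with ATRA in NB4, and 6 rose and 5 fell with the combination. In HL-60, 7 of these rose and 3 fell with ATRA, and 9 rose and 5 fell with the combination. NPC2, which moves cholesterol out of lysosomes, rose with the combination from 12.4 ± 0.576 to 69.2 ± 6.62 CPM in NB4 (SD, n = 3; log2 2.47 ± 0.0891) and from 31.9 ± 2.92 to 86.1 ± 8.69 CPM in HL-60 (1.45 ± 0.0716). TMEM97, a sterol-regulated membrane protein, fell in both lines (-1.12 ± 0.0663 and -0.56 ± 0.0557). In HL-60 the ends of this list were ERLIN1, which sits in the endoplasmic reticulum (-1.15 ± 0.0447), and NCEH1, a cholesteryl ester hydrolase (2.35 ± 0.0651).

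Of 21 further fatty acid and glycerolipid genes, 14 rose and 3 fell with ATRA in NB4, and 11 of 20 tested rose and 2 fell in HL-60. With the combination 12 rose and 4 fell in NB4, and 12 rose and 6 fell in HL-60. ACSS2, which makes acetyl-CoA from acetate, was at 21.0 ± 5.36 CPM in untreated NB4, 149 ± 48.3 CPM with ATRA and 76.5 ± 5.5 CPM with the combination, and stood between 26.3 and 31.5 CPM (group means) in HL-60. ME1, the malic enzyme that supplies NADPH, was at 16.6 ± 1.47 CPM in untreated HL-60, 20.6 ± 0.895 CPM with ATRA, 57.1 ± 3.59 CPM with ATO and 155 ± 1.08 CPM with the combination (3.24 ± 0.0691), and at 27.5 ± 2.03 and 33.3 ± 2.5 CPM in untreated and combination NB4 cells. GPAM, which starts glycerolipid synthesis, fell with the combination in NB4 (-1.18 ± 0.0941), and TECR, which acts in fatty acid elongation, fell in HL-60 (-0.71 ± 0.067). Among partners and further targets of LXR, RXRA, the retinoid receptor that pairs with LXR, fell with the combination in both lines (-0.55 ± 0.112 in NB4 and -1.41 ± 0.056 in HL-60), while NR1H2, the second LXR gene, rose (0.71 ± 0.093 and 0.23 ± 0.0654). The largest rise on that list in HL-60 was that of a gene not reported here. Of that list of 9, 4 of 5 tested rose and 1 fell with ATRA in NB4 (31.3% and 28.6% of all genes). In HL-60, 4 of 8 rose and 2 fell (25.2% and 23.3%). The rises were not particular to ATRA. With ATO alone 4 of 5 rose and 1 fell in NB4 (21.2% and 19.6% of all genes), and 6 of 8 rose and 1 fell in HL-60 (16.5% and 12.1%).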

How the data were processed

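Poly(A)-selected RNA of 24 libraries was sequenced in pairs of 150 bases, per the labels' protocols. The authors deposited raw read counts per gene. The submitters' processing notes name fastp, HISAT2, featureCounts and GRCh38, and DESeq2 for their own tests. No source used here gives their versions, the strand setting, or whether single reads or pairs were counted. Even values made up 74.4% of counts of 1 to 9 and 51.5% of counts of 500 or more, so halved counts were tried as well. Library totals of 37811652 to 57795273 leave counting error small beside the spread except for genes of few reads.

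Counts were tested with edgeR 4.0.16 (R 4.3.3; filterByExpr, TMM, quasi-likelihood test, Benjamini-Hochberg adjustment over all genes tested, threshold 0.05), fitted per line on 12 libraries (residual df 8) and, between lines, on all 24 (residual df 16). The scripts were tested on simulated data. Members and lists were chosen with earlier results of these data known. Genes named in the text are, within each role, up to 5 members with the largest called change of a treatment against untreated in either line, those called in opposite directions in the lines, and the ends of the other lists, of which 1 gene is not reported here. Further members named for their values were chosen after these were seen. Batch numbers in the labels pair the libraries. Deviations of libraries of the same number had correlations between -0.37 and 0.275 over 18 pairs of NB4 and between -0.0739 and 0.265 over 18 of HL-60, and the main fit has no block. Promoters are RefSeq's (GRCh38.p14). The shorter sterol core and the E-box were chosen after seeing the data. Exon lengths are from GENCODE 29. HSD17B7P2 and the overlaps limit some members, as given beside them. Alternatives were DESeq2 1.42.0, its size factors, library sizes alone, 2 other filters, a replicate block, fits of only the groups compared, halved counts, and each library left out.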

Additional observations from a re-analysis of the deposited data

Results flagged for a closer look

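The response of a member differed between the 2 lines in 50 cases, by the test of the difference itself in the fit of all 24 libraries (edgeR's quasi-likelihood test, adjusted p below 0.05). Values are log2 differences, the change in HL-60 minus the change in NB4. For ATRA the difference was negative, a less positive change in HL-60, for ACAT2 (-0.73), HMGCS1 (-0.91), MVK (-0.68), MVD (-1.42), FDPS (-0.91), FDFT1 (-0.74), MSMO1 (-0.64), HSD17B7 (-0.77), EBP (-0.94), DHCR7 (-0.75), INSIG1 (-1.0), STARD4 (-0.50), SREBF2 (-0.49), FASN (-0.64), ACACA (-0.29) and MYLIP (-0.52). Of these, EBP and HSD17B7 were not called within HL-60 (0.05, adjusted p = 0.637, and 0.20, adjusted p = 0.101). The difference was positive for PNPLA3 (7.61), ABCA1 (1.07) and NR1H3 (1.76).

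For ATO the difference was positive for HMGCS1 (0.90), IDI1 (0.60), MSMO1 (0.69), SC5D (0.42), INSIG1 (0.48), STARD4 (0.39), SCD (0.31), PNPLA3 (4.89) and NR1H3 (0.51), and negative for SREBF1 (-0.46). Those of STARD4 and NR1H3 were lost most often among the alternatives.

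For the combination the difference was positive for HMGCS1 (1.23), IDI1 (0.98), SQLE (1.11), MSMO1 (0.75), SC5D (0.45), INSIG1 (0.75), STARD4 (0.79), SCD (1.23), ACLY (0.48), FADS1 (0.67), PNPLA3 (7.98), ABCA1 (1.4) and NR1H3 (1.44). It was negative for MVK (-0.43), MVD (-0.97), FDPS (-0.30), TM7SF2 (-0.76), HSD17B7 (-0.47), EBP (-0.63), SREBF2 (-0.25) and MYLIP (-0.51). With 1 library left out, the difference of SREBF2 was lost in 5 fits, without NB4 untreated 2, NB4 combination 2, HL-60 untreated 1 or HL-60 combination 1 or 3 (adjusted p of 0.0543 to 0.0827). That of FDPS was lost in 3, without NB4 untreated 2, NB4 combination 2 or HL-60 combination 1 (0.052 to 0.0744), and that of HSD17B7 in 1, without NB4 untreated 2 (adjusted p = 0.0597). The 3 values of PNPLA3 are fitted against 2 counts in untreated HL-60 cells, depend on the prior count and are no bound.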

How the results depend on the processing

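The counts of members called, by the alternatives listed in the account of processing, stayed within 1.5 times the main count except as follows, and the cause was not tested. With library sizes alone, the NB4 ATO counts went from 4 higher and 14 lower to 8 and 7, the HL-60 interaction from 9 to 16 below the sum, the line difference for ATO from 1 to 3 lower and that for the combination from 8 to 13 lower. With only the groups compared in the fit, NB4 ATO had 7 higher, the HL-60 combination 2 lower in place of 4, and the line difference for ATO 3 lower. Leaving out 1 library at a time, members lower with ATRA in NB4 ran from 1 to 2 (2 without untreated library 1). Members higher with ATO in NB4 ran from 2 to 6 (2 without untreated library 2, ATO library 2 or ATO library 3) and lower from 7 to 15 (9 without untreated library 3, 7 without ATO library 3). Members lower than with ATO in the NB4 combination ran from 1 to 3 (1 without combination library 3), and lower with the HL-60 combination from 2 to 4 (2 without untreated library 2). Those below the sum in HL-60 ran from 6 to 15 (15 without combination library 2), and lower in the line difference for the combination from 5 to 10 (5 without untreated NB4 library 2). For single members in the treatments against untreated cells and the line differences, 131 calls were lost, 102 gained and none reversed over the alternatives, and 6982 values kept their status, those not called in either fit included; members in the combination against each drug and in the interaction were recomputed as counts, and singly with the block. With the batch as a replicate block NB4 ATO had 3 higher and 12 lower, NB4 ATRA 29 and 1, and 11 members were below the sum in HL-60; calls of 6 member comparisons changed, those given in the report (HSD17B7, ACACA, MYLIP, PMVK and TM7SF2), and no other. Depth limits PNPLA3, ABCG1, CYP51A1 and TM7SF2, whose counts were low in 1 or both lines.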
